A study of Homo sapiens with 6 samples.

Results

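Secreted and cell surface proteases of the plasminogen and matrix metalloproteinase systems, with their inhibitors, were described in U251 cells, an established human glioblastoma line. The set held 9 genes of 20046 named genes on the array: PLAU, PLAUR, PLAT, SERPINE2, MMP1, MMP2, MMP14, TIMP1 and TIMP3. The genes were chosen with earlier results of these data known. For the chosen genes, all probes with a current or former symbol among these were taken, whatever their signals, which gave 11 probes of 47231. PLAUR had 3 probes and each other gene had 1.

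Total RNA was profiled on 6 one-colour Illumina bead arrays, 3 per group. All cells were U251 cells grown in medium with serum and had received a lentivirus made from a pLKO vector 5 days before RNA was taken. Control cells carried a non-target shRNA (shCON), and the other cells carried an shRNA against cyclophilin B (shCypB), the prolyl isomerase of the endoplasmic reticulum encoded by PPIB. The labels call the 3 samples of a group biological replicates, and they name 1 shRNA for the knockdown. Loss of cyclophilin B and off-target effects of that shRNA cannot be told apart.

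As background, urokinase (PLAU) and tissue plasminogen activator (PLAT) cleave plasminogen to plasmin, a broad protease that degrades fibrin and matrix proteins. Urokinase does so mainly while bound to its receptor (PLAUR) on the cell surface, and serpins such as protease nexin 1 (SERPINE2) trap both activators. Plasmin can in turn activate metalloproteinases, which tissue inhibitors of metalloproteinases (TIMPs) block. In glioblastoma these systems are known for their part in invasion of brain tissue.

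On the arrays, 16597 to 18700 probes were detected (detection p below 0.05, where detection p is the share of negative control beads at least as bright). Log2 signals of the tested probes correlated with Pearson r of 0.987 to 0.994 within a group and 0.957 to 0.965 between groups. The targeted PPIB was detected on 3 shCON arrays and 0 shCypB arrays and was at least 1.45-fold lower in shCypB (limma, adjusted p = 0.0034). Its log2 signals were 6.05, 5.68 and 5.35 in shCON and 4.58, 4.44 and 4.81 in shCypB. The lowest detected signals of the arrays were 5.12 to 5.29, so this probe was dim in shCON too. The depth of the knockdown cannot be read from it. Of 11 glial and glioma markers on the array, 8 to 10 were detected per array, with GFAP and NES among them and S100B on none. Of 24 markers of other cell types, 6 to 11 were detected per array. By the probe of each gene detected most often, CD68 of macrophages and ACTA2 of smooth muscle were detected on 6 arrays, CD14 and CSF1R of myeloid cells on 5, and KRT18 of epithelium, SYT1 of neurons and PDGFRB of pericytes on 4. AIF1 of macrophages and VWF of endothelium were detected on 3 arrays. CD3D, MS4A1, PECAM1, KRT8, SNAP25 and MBP were detected on 1 or 2. PTPRC and CD3E of leukocytes, CDH5 and KDR of endothelium, EPCAM and CDH1 of epithelium, RBFOX3 of neurons, MOG of oligodendrocytes and DES of muscle were detected on 0 arrays. The summed signal of those 24 markers was 1212 to 1368 on shCON arrays and 1139 to 1181 on shCypB arrays, and that of the glial markers was 24920 to 28410 and 24150 to 25820. Both are sums of linear signal over all markers of the list, detected or not, so the brightest genes weigh most. Among the glial markers these were VIM and CD44, with mean log2 signals of 14 and 12.8 in shCON. The sums do not show how single markers moved. The part of these differences in the results below was not tested.

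Urokinase and its receptor had the greatest increases of the set, 3.26-fold and 3.28-fold, whereas tissue plasminogen activator and protease nexin 1 did not pass the test. MMP2 and TIMP1 were higher by 1.34-fold and 1.27-fold, and both calls depended on the processing. MMP1, MMP14 and TIMP3 were at background. By gene, 6 of the 9 were tested, each detected on all 6 arrays, and 4 were higher in shCypB and 0 were lower. Over all 10517 tested genes, 23.1% were higher and 20.8% lower at the same threshold (limma, Benjamini-Hochberg adjusted p below 0.05). The count of 4 became 2 without shCON replicate 1, shCypB replicate 2 or shCypB replicate 3. The called genes are few, and the share was not tested against that background. The 6 tested genes had a median log2 change of 0.38, against 0.03 over all tested genes. All 6 had a log2 change above 0, and 0 were lower at an unadjusted p below 0.05. In bulk RNA such as this, fewer cells of a type and less RNA per cell cannot be told apart.

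**Figure D1:**
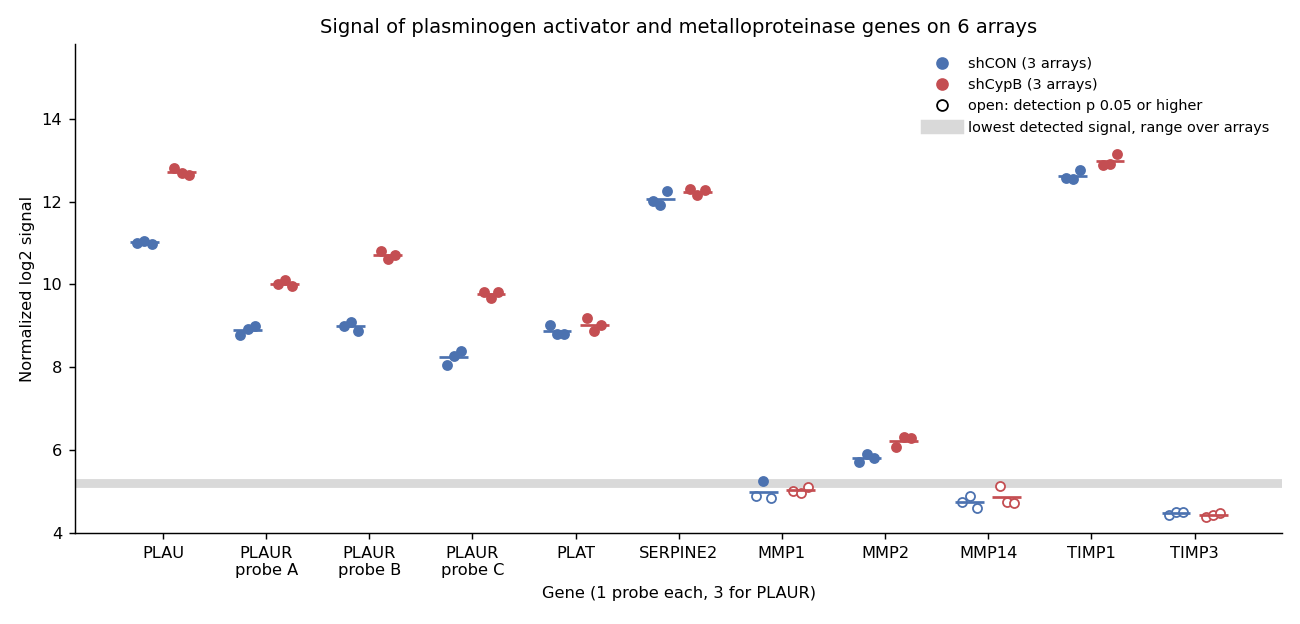
Normalized log2 signal of each of the 11 probes on the 6 arrays, blue for shCON and red for shCypB, with a line at the mean of 3 arrays; open circles were not detected and the grey band is the range of the lowest detected signal, 5.12 to 5.29. PLAU and the 3 PLAUR probes separate the groups widely, and MMP1, MMP14 and TIMP3 lie at or under the band.

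The upstream sequences of PLAU and PLAUR are shown because these 2 genes had the greatest changes of the set. They are the 250 bases before the annotated start, read 5′ to 3′ on the gene's strand, from RefSeq on GRCh38.p14. Capitals mark matches to TGANTCA, the consensus of AP-1 (dimers of FOS and JUN proteins), which reads the same on both strands. PLAU has 2 annotated starts there, with windows at chr10:73910360-73910609 and chr10:73910882-73911131 on the + strand. The PLAUR window is chr19:43670170-43670419 on the - strand.
PLAUR: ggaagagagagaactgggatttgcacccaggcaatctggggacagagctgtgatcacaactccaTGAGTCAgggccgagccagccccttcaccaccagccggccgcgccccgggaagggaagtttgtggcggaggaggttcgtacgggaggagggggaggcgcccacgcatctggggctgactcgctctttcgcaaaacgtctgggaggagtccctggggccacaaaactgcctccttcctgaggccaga
PLAU first start: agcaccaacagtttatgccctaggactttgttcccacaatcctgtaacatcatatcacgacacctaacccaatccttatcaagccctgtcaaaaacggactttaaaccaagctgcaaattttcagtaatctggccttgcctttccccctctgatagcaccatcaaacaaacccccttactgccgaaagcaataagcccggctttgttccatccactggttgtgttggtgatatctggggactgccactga
PLAU second start: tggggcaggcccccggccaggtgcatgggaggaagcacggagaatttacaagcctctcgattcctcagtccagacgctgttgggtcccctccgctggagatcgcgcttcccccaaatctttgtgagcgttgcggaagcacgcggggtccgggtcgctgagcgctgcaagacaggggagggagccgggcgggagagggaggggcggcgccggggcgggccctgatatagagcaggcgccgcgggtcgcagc

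The PLAUR window held 1 match to TGANTCA, the site TGAGTCA from 186 to 180 bases before the start, and both PLAU windows held 0. The counts for the set cover 8 windows of 6 of the 9 genes (PLAU, PLAUR, SERPINE2, MMP14, TIMP1 and TIMP3), of which 1 had a match. MMP1 and MMP2 had no window. Windows on chromosome 8 were left out for the set, which removed PLAT, but not for all genes. Of 35116 windows of all genes, 6.6% had one. GGGCGG, the GC box read on either strand, was in 6 of the 8 windows and in 42.6% of all windows, and the second PLAU window held 3 copies, the nearest 40 to 35 bases before the start. TATAAA was in 0 of the 8 windows and in 10.7% of all. These matches describe the letters only, and whether any protein bound them in these cells was not measured.

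PLAU, which encodes urokinase, was read by probe ILMN_1656057. Log2 signals were 11, 11.06 and 10.98 in the 3 control samples and 12.81, 12.70 and 12.64 in the 3 knockdown samples. All 3 shCypB arrays lay above all 3 shCON arrays, and the gap between the groups was many times the spread within either. The log2 change was 1.71 ± 0.09 (SE; limma, adjusted p = 4.3e-05), with a 95% interval of 1.49 to 1.92, or 3.26-fold. Before normalization its bead intensity was 1834, 2468 and 1542 in shCON and 7984, 6673 and 7223 in shCypB. Those intensities did not overlap between the groups either. Ranked by log2 change from the highest, PLAU stood at place 68 of 10517 genes.

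PLAUR encodes the urokinase receptor, which is held in the membrane by a lipid anchor. Its brightest probe, ILMN_2374340, gave log2 signals of 9.0, 9.10 and 8.89 in shCON cells against 10.81, 10.62 and 10.70 in shCypB cells. The groups were again far apart, and the log2 change was 1.71 ± 0.10 (SE; limma, adjusted p = 5.6e-05), or 3.28-fold, at place 66 of 10517 genes. Probe ILMN_2408543, annotated to a different PLAUR transcript, had log2 signals of 8.05, 8.27 and 8.40 against 9.81, 9.67 and 9.81. Its log2 change was 1.52 ± 0.12 (adjusted p = 1.3e-04). Probe ILMN_1691508, annotated to the same transcript as the brightest probe, had log2 signals of 8.79, 8.92 and 9.0 against 10.01, 10.10 and 9.96. Its log2 change was smaller, at 1.12 ± 0.10 (adjusted p = 2.2e-04), or 2.17-fold.

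The 3 PLAUR probes therefore gave the same direction and different sizes. Between ILMN_1691508 and ILMN_2374340, the within-array difference of log2 signal shifted by -0.59 from shCON to shCypB (95% interval -0.96 to -0.22), and the groups did not overlap. Between ILMN_1691508 and ILMN_2408543 it shifted by -0.40 (-0.67 to -0.14), also without overlap. Between ILMN_2374340 and ILMN_2408543 the shift was 0.19 (-0.21 to 0.58) and the groups overlapped. In exact two-sided permutation tests of 3 against 3 arrays the p-values were 0.1, 0.1 and 0.3 (0.15, 0.15 and 0.30 adjusted over these 3 pairs), and 0.1 is the smallest that this design allows. The probe positions within the transcripts are not given in the sources used here.

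**Figure D2:**
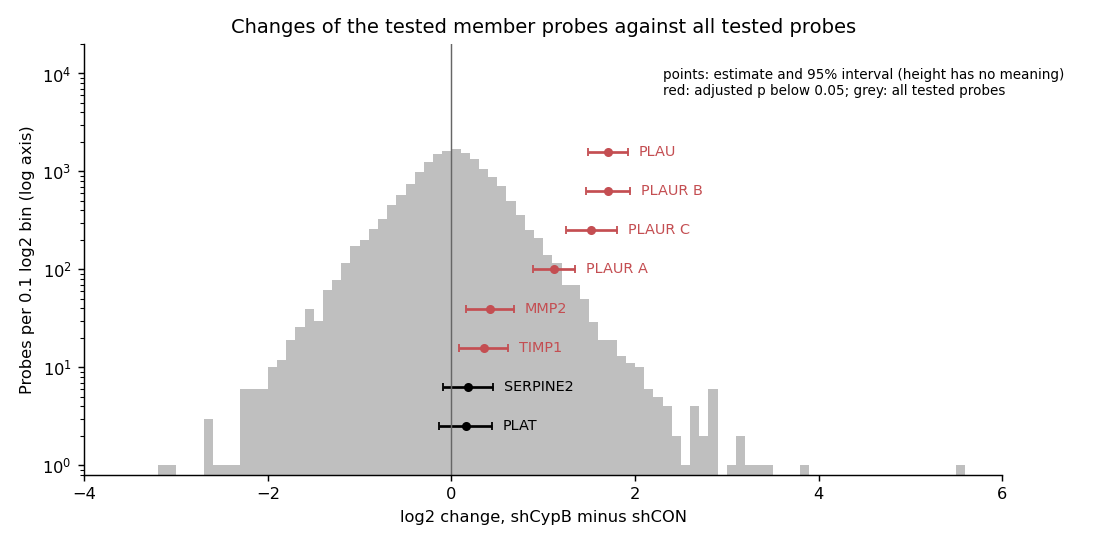
Log2 change (shCypB minus shCON) of the 8 tested probes of the set, with 95% intervals, over the histogram of all 17608 tested probes on a log axis; the height of the points has no meaning. PLAUR A, B and C are ILMN_1691508, ILMN_2374340 and ILMN_2408543. PLAU and PLAUR lie in the upper tail, and SERPINE2 and PLAT have intervals that include 0.

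PLAT encodes tissue plasminogen activator, the activator that works on fibrin and is also made in brain. Log2 signals of 9.02, 8.80 and 8.80 in shCON cells and 9.19, 8.87 and 9.03 in shCypB cells overlapped. The log2 change of 0.16 ± 0.12 did not pass (limma, adjusted p = 0.35), and its 95% interval of -0.13 to 0.44 leaves out a change as large as that of PLAU. SERPINE2 encodes protease nexin 1, an inhibitor of thrombin and of both plasminogen activators. It had log2 signals of 12.02, 11.91 and 12.25 in shCON and 12.30, 12.15 and 12.27 in shCypB, which overlapped. Its log2 change of 0.18 ± 0.12 did not pass (adjusted p = 0.26; 95% interval -0.09 to 0.45).

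PLAU thus shifted relative to the other activator and to the inhibitor on the same arrays. The PLAU signal minus the SERPINE2 signal (log2, within an array) was -1.02, -0.85 and -1.26 in shCON and 0.51, 0.55 and 0.37 in shCypB. This shift of 1.52 had a 95% interval of 1.16 to 1.89. Relative to PLAT the shift of PLAU was 1.55 (1.24 to 1.86), relative to TIMP1 1.36 (0.92 to 1.79) and relative to MMP2 1.29 (0.92 to 1.66). Relative to the brightest PLAUR probe, ILMN_2374340, it was -0.01 (-0.16 to 0.15). The likeness of the 2 rises holds for that probe only. The log2 changes of the other PLAUR probes were smaller, at 1.52 and 1.12 against 1.71 for PLAU, and their shifts relative to PLAU were not tested. Of the 15 pairs among the 6 tested genes, 8 had groups that did not overlap, namely PLAU and PLAUR each against PLAT, SERPINE2, MMP2 and TIMP1. These pairs restate the changes of PLAU and PLAUR and are not 8 separate results. The share among pairs of all tested genes was not computed. Of single tested genes, 30.1% had groups that did not overlap in the higher direction. Each of these 8 had an exact two-sided permutation p of 0.1, the smallest this design allows (0.19 adjusted over the 15 pairs). These are shifts between groups, since the levels of different probes cannot be compared.

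**Figure D3:**
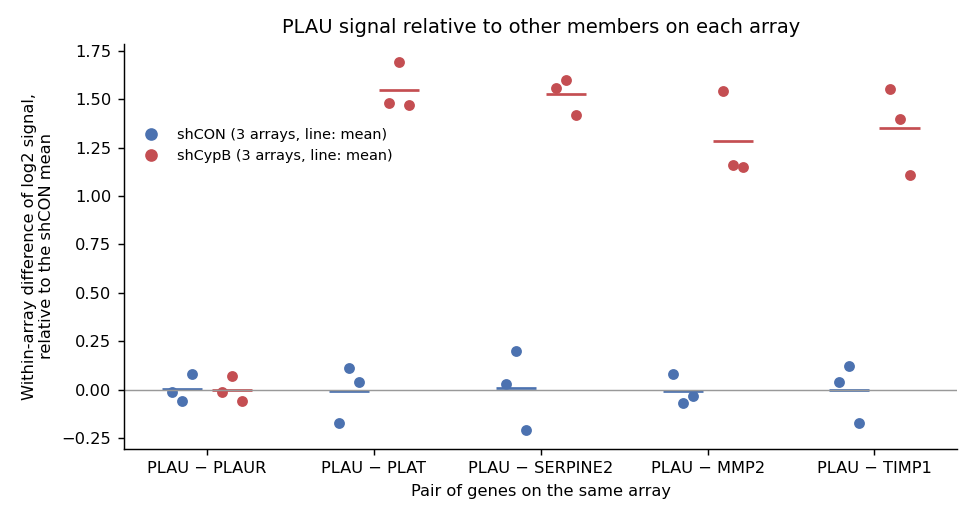
Log2 signal of PLAU minus that of 5 other genes of the set on the same array, set to 0 at the shCON mean, with blue points for 3 shCON arrays, red points for 3 shCypB arrays and lines at the means. The difference to the brightest PLAUR probe stayed near 0, and the differences to PLAT, SERPINE2, MMP2 and TIMP1 were higher on all shCypB arrays.

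Of the 3 metalloproteinase genes in the set, MMP2 was the one measured above background on all arrays. MMP2 encodes gelatinase A, which cleaves denatured collagen and basement membrane collagen. Log2 signals were 5.72, 5.92 and 5.81 in shCON cells against 6.08, 6.33 and 6.29 in shCypB cells, little above the lowest detected signals of 5.12 to 5.29. The groups did not overlap, which was true of 30.1% of all tested genes in this direction. The log2 change was 0.42 ± 0.11 (SE; limma, adjusted p = 0.021). The call was lost without shCON replicate 1 (0.38, adjusted p = 0.062), without shCypB replicate 2 (0.37, adjusted p = 0.069) and without shCypB replicate 3 (0.38, adjusted p = 0.073). It was also lost in the authors' processed values, where the change was 0.22 (adjusted p = 0.0504), and without background correction it was 0.23 (adjusted p = 0.0463).

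MMP1 encodes interstitial collagenase, and MMP14 encodes a membrane-anchored metalloproteinase that activates the MMP2 proenzyme. MMP1 was detected on 1 of 6 arrays, shCON replicate 2, with a log2 signal of 5.25, and its other log2 signals were 4.89 and 4.85 in shCON and 5.03, 4.96 and 5.11 in shCypB. On shCypB replicate 3 its detection p was 0.0506, just outside the threshold. MMP14 was detected on 0 of 6 arrays, with log2 signals of 4.75, 4.91 and 4.62 against 5.13, 4.75 and 4.74, and its lowest detection p was also 0.0506, on shCypB replicate 1. Neither gene was tested and neither gets a fold, because both groups were at background. The arrays therefore give no measure of a change in these 2 genes, at the level of RNA or of protease activity.

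TIMP1 encodes a secreted inhibitor of most metalloproteinases. It had log2 signals of 12.56, 12.54 and 12.77 in shCON cells against 12.87, 12.90 and 13.14 in shCypB cells. The groups did not overlap, but the gap between them, from 12.77 to 12.87, was smaller than the spread within each. The log2 change of 0.35 ± 0.12 passed narrowly (limma, adjusted p = 0.049). The call was lost without shCON replicate 1 (0.31, adjusted p = 0.13) or 2 (0.31, adjusted p = 0.12). It was also lost without shCypB replicate 1 (0.40, adjusted p = 0.066), 2 (0.39, adjusted p = 0.079) or 3 (0.26, adjusted p = 0.15). TIMP3 encodes the inhibitor that binds to the matrix, and it was detected on 0 of 6 arrays. Its log2 signals were 4.44, 4.51 and 4.51 in shCON and 4.39, 4.44 and 4.49 in shCypB, and its detection p was 0.74 or higher throughout.

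Genes that act with these proteases were described from lists by counts, with no test of the list. Each list count, here and below, stands beside shares of 23.1% higher and 20.8% lower over all 10517 tested genes. No list was tested against those shares. Of 27 partners of the plasminogen system, 24 had a named probe and 12 were tested, of which 4 were higher in shCypB, 2 lower and 6 did not pass (median log2 change 0.05). F3, which encodes tissue factor, the starter of coagulation, went from a log2 signal of 5.30 ± 0.56 to one of 7.30 ± 0.12 (SD, n = 3), shCON to shCypB. The log2 change was 2.0 ± 0.26 (limma, adjusted p = 9.3e-04) and 1.29 at its other probe. It was detected on 2 of 3 shCON arrays, and without background correction the change was 1.24. SORL1, a sorting receptor that can bind urokinase and its inhibitor complexes, rose by 0.72 ± 0.15 (adjusted p = 0.0077), by 1.38 at its other probe, and by 0.39 at the first probe without background correction. SERPINA5, the protein C inhibitor, fell by 1.18 ± 0.13 (adjusted p = 5.0e-04), and PLGRKT, a plasminogen receptor of the cell surface, by 0.92 ± 0.12 (adjusted p = 1.0e-03). At their brightest tested probes, the plasminogen binding partners ANXA2, S100A10 and ENO1 had log2 changes of -0.02, -0.02 and -0.05 and did not pass. Other probes had log2 changes of -0.13 and 0.28 for ANXA2 and 0.11 for S100A10. PLG, the gene of plasminogen itself, was detected on 0 arrays.

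Of 20 other matrix metalloproteinase genes, 8 were tested and 3 were higher, 1 lower and 4 did not pass (median log2 change 0.13). MMP3, which encodes stromelysin 1, was undetected on all shCON arrays and detected on all shCypB arrays, and it rose at least 2.39-fold (log2 signal 5.04 ± 0.19 and 6.49 ± 0.11; limma, adjusted p = 2.0e-04). MMP7, which encodes matrilysin, fell by 2.02 ± 0.16 on the log2 scale, from 7.24 ± 0.29 to 5.23 ± 0.16 (SD, n = 3; adjusted p = 1.6e-04), with -2.36 at its other probe. MMP11, or stromelysin 3, had a log2 change of 1.17 ± 0.12 (adjusted p = 4.3e-04), detected on 1 of 3 shCON arrays. MMP16, a membrane-type metalloproteinase, had one of 1.01 ± 0.15 (adjusted p = 0.0017). All 4 were dim in 1 or both groups, and without background correction their log2 changes were 0.79 for MMP3, -1.21 for MMP7, 0.62 for MMP11 and 0.60 for MMP16. MMP3, MMP7 and MMP1 lie in a run of 9 metalloproteinase genes on chromosome 11 (RefSeq, GRCh38.p14), of which these first 2 were tested and moved in opposite directions.

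Among 8 other metalloproteinase inhibitors 5 were tested, and 2 were higher, 1 lower and 2 did not pass (median log2 change 0.52). TIMP2, which binds MMP14 in the complex that activates MMP2, rose by 0.88 ± 0.09 on the log2 scale, from 11.44 ± 0.05 to 12.32 ± 0.07 (SD, n = 3; limma, adjusted p = 4.1e-04), and by 0.84 at its other probe. TIMP4 fell by 1.36 ± 0.15, from 7.69 ± 0.16 to 6.33 ± 0.25 (adjusted p = 4.9e-04). SPOCK1, a secreted proteoglycan, rose by 0.54 ± 0.12 (adjusted p = 0.012). The measured TIMP genes thus went apart, with TIMP2 and TIMP1 higher and TIMP4 lower, and the call of TIMP1 was the narrow one described above.

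Of 26 ADAM and ADAMTS genes, 8 were tested and 4 were higher, 1 lower and 3 did not pass (median log2 change 0.52). ADAM10, a sheddase of the cell surface, rose by 1.02 ± 0.11 on the log2 scale (limma, adjusted p = 4.7e-04; 0.49 at its other probe), ADAM19 by 0.78 ± 0.12 (adjusted p = 0.0020) and ADAM12 by 0.73 ± 0.13 (adjusted p = 0.0034; 0.40 at its other probe, and 0.37 without background correction). The change of ADAMTS6, at 0.92 ± 0.23 (adjusted p = 0.017), lost its call without shCON replicate 1 (0.78, adjusted p = 0.0517) or 2 (0.81, adjusted p = 0.0507). It also lost it without shCypB replicate 1 (0.81, adjusted p = 0.059) or 2 (0.87, adjusted p = 0.0536). Of 8 convertases and inducers 6 were tested, 1 was higher and 0 were lower (median log2 change 0.20). FURIN, the convertase that activates MMP14, rose by 0.81 ± 0.17 (adjusted p = 0.0076). BSG encodes basigin, a cell surface receptor of cyclophilins known to induce metalloproteinases, and its log2 change of 0.19 ± 0.11 did not pass (adjusted p = 0.22).

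**Figure D4:**
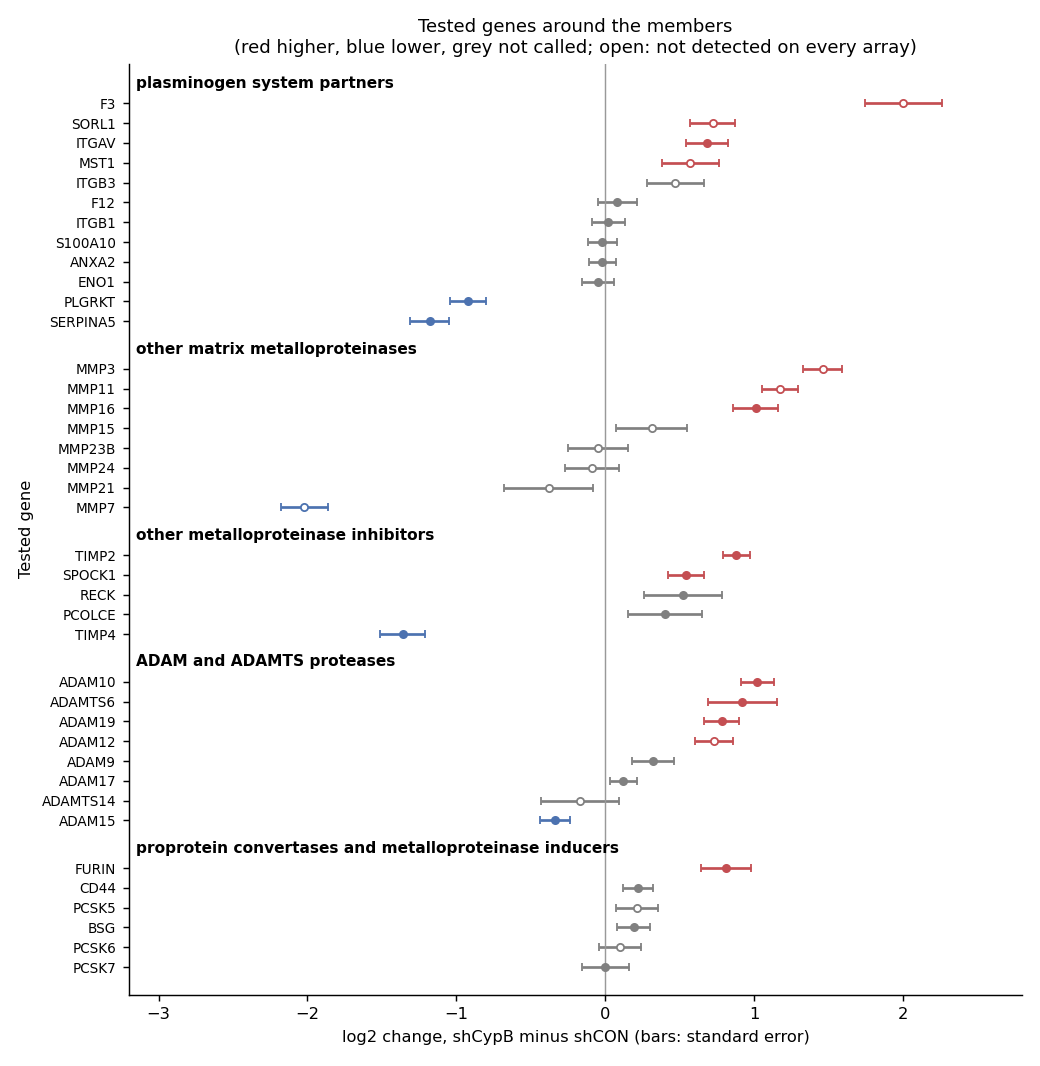
Log2 change (shCypB minus shCON) with its standard error for each tested gene of 5 lists around the set, red where higher, blue where lower and grey where the test was not passed; open points were not detected on all 6 arrays. F3 and MMP3 lie farthest to the right and MMP7 farthest to the left.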

How the data were processed

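Per the file headers, the main table holds non-normalized linear bead intensity for 47231 probes on 6 arrays. The authors also deposited a detection p-value for each probe and array. A second deposited table holds processed intensity. Its method is not given here, although the submitters' processing notes name Partek, and it served as an alternative.

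Signals were background corrected with normexp (limma 3.58.1, R 4.3.3; negative control level inferred from detection p, offset 16), quantile normalized and log2 transformed. Probes with detection p below 0.05 on at least 3 of 6 arrays were tested (17608 probes). Group was the only term in lmFit and eBayes (4 residual and 3.51 prior degrees of freedom), with Benjamini-Hochberg adjustment over all tested probes and calls at adjusted p below 0.05. The number of arrays limits the precision. A gene stood for its brightest tested probe (10517 genes). Where all arrays of a group were undetected, a fold is a bound against the lowest detected signal of each array (5.12 to 5.29). Of all probes, 30113 had 1 gene symbol, 8 had several and 17110 were unlisted in the probe table. Symbols were brought up to date with RefSeq. The fit was run on simulated data in which far fewer probes changed than were called here. That run checks the code only, and not the normalization or the error rates in these data.

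The members and lists were chosen with earlier results of these data known. Besides all 9 genes, the text names up to 4 called genes with the greatest changes per list, or the 2 lowest p-values in a list with no call, and PPIB and BSG. Named outside that rule, after their values were seen, were ANXA2, S100A10, ENO1, PLG, FOS, VIM, CD44 and the markers given only by detection. No slide or date is given, so no batch could be entered.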

Additional observations from a re-analysis of the deposited data

How the results depend on the processing

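Alternatives covered the background correction, the normalization, the authors' processed values, the filter, the variance prior, the replicate number and each array left out. For the 8 tested probes of the set, 105 of 119 refits kept direction and side of the threshold, 14 lost a call and 0 reversed. PLAU and the 3 PLAUR probes kept their calls in all of theirs (log2 change 1.66 to 1.74 for PLAU, and 1.04 to 1.76 over the PLAUR probes). The count of genes of the set that were higher was 4, and 2 to 4 with an array left out. With median scaling it was 2, since MMP2 (0.29, adjusted p = 0.084) and TIMP1 (0.29, adjusted p = 0.11) lost their calls. That scaling moved the median of all tested probes from 0.02 to -0.07. MMP2 was also lost with an intensity trend and robust prior (adjusted p = 0.080) and was not tested where detection p had to be below 0.01 on all arrays. TIMP1 was also lost with no filter (adjusted p = 0.10). The causes were not tested.

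Deviations from the group means of same-numbered arrays correlated at -0.10, -0.11 and 0.01, which shows no sign of pairing by replicate number. With 3 arrays per group this cannot decide whether samples were paired, and the labels do not state it. With the replicate number as a block, 3022 probes were higher and 2764 lower (3570 and 3205 without it), and 5 probes and 3 genes of the set were higher, with TIMP1 at adjusted p = 0.0524. For the other 36 named genes, chosen for this after the data were seen, 489 of 525 refits kept direction and side of the threshold, 36 lost a call and 0 reversed. In the 150 bases before the start, TGANTCA was in 0 of the 8 windows counted for the set and in 4.2% of all. For MMP1, MMP14 and TIMP3, signal at background is the limit.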

Other observations

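Other proteases of the secretory and lysosomal routes, and the further lists below, were also described by counts with no test of the list. Over all tested genes, 23.1% were higher and 20.8% lower. Of 20 cathepsins and other secreted proteases, 12 were tested, and 3 were higher in shCypB, 2 lower and 7 did not pass (median log2 change 0.16). FAP, a membrane serine protease of activated stroma, rose by 0.86 ± 0.12 on the log2 scale (limma, adjusted p = 0.0015) and PRSS23, a secreted serine protease, by 0.41 ± 0.09 (adjusted p = 0.0082). MME, which encodes neprilysin, fell by 0.71 ± 0.11 (adjusted p = 0.0019) and the lysosomal protease gene CTSD by 0.49 ± 0.10 (adjusted p = 0.0074). Without background correction the log2 change of MME was -0.41. Of 12 other genes of protease inhibitor families, whether or not each product inhibits a protease, 3 were tested. Of these, 1 was higher, 1 lower and 1 did not pass (median log2 change -0.35). SERPINB8 had a log2 change of 0.40 ± 0.12 (adjusted p = 0.031; 0.70 at its other probe) and the cystatin gene CST3 one of -0.35 ± 0.11 (adjusted p = 0.039). SERPINB8 lost its call with 1 array left out in 5 of 6 cases and CST3 in 6 of 6, and both also lost it with no filter on dim probes (adjusted p = 0.066 and 0.078). SERPINB8 lost it with median scaling (adjusted p = 0.072), with the authors' processed values (0.21, adjusted p = 0.081) and with an intensity trend and robust prior (adjusted p = 0.070) as well.

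Of 15 AP-1 and ETS transcription factor genes, whose proteins are known to act on protease promoters, 13 were tested, and 5 were higher, 1 lower and 7 did not pass (median log2 change 0.31). JUN rose by 0.56 ± 0.10 on the log2 scale (limma, adjusted p = 0.0039), and ETS1 fell by 0.60 ± 0.13 (adjusted p = 0.0097; -0.36 at its other probe). FOSB (0.74 ± 0.22, adjusted p = 0.032) and ETV4 (0.54 ± 0.14, adjusted p = 0.018) lost their calls in 4 and 3 of the 6 fits with an array left out. FOSB had its highest adjusted p of 0.10 without shCypB replicate 1, and with no filter on dim probes it had one of 0.088. ETV4 had its highest adjusted p of 0.25 with median scaling, where its log2 change was 0.31, and one of 0.065 without shCypB replicate 3. The other ETV4 probe had a log2 change of 0.94. FOS was detected on 0 arrays.

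Of 10 tested glial and glioma markers, 3 were higher, 4 lower and 3 did not pass (median log2 change -0.05). GFAP fell by 1.84 ± 0.14, FABP7 by 1.07 ± 0.14 and NES by 0.66 ± 0.10, and ALDH1L1 rose by 0.69 ± 0.14 (limma, adjusted p = 0.0066 or lower for each). ALDH1L1 was detected on 2 of 3 shCON arrays. Without background correction the log2 changes were -1.6 for GFAP, -0.7 for FABP7, -0.57 for NES and 0.36 for ALDH1L1. Of 9 tested markers of other cell types, 2 were higher, 2 lower and 5 did not pass (median log2 change -0.41). The neuronal gene SYT1 had a log2 change of 2.12 ± 0.13, CSF1R of macrophages one of 0.54 ± 0.10, the smooth muscle gene ACTA2 one of -1.22 ± 0.10 and the keratin gene KRT18 one of -0.41 ± 0.10. SYT1 was detected on 1 of 3 shCON arrays, CSF1R on 2 of 3 and KRT18 on 1 of 3 shCypB arrays. Without background correction the log2 changes were 1.27 for SYT1, 0.27 for CSF1R and -0.98 for ACTA2. CSF1R lost its call with median scaling (0.36, adjusted p = 0.18). KRT18 lost its call with offset 50 (-0.23, adjusted p = 0.056), without background correction (-0.20, adjusted p = 0.071), with an intensity trend and robust prior (adjusted p = 0.13) and without shCypB replicate 1 (-0.35, adjusted p = 0.062), and its other probe had a log2 change of -0.15.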
